A study of Rattus norvegicus with 8 samples.

Results

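The genes described here build, feed and reshape mitochondria: the protein import machinery of both mitochondrial membranes, the proteins that hold the folds of the inner membrane (cristae), the machinery of mitochondrial fusion and fission, and the proteases and prohibitins of the inner compartments. Members were taken by name, with no measured value in the choice of genes, but the set was proposed with earlier results of these data known. The rule took every row of the expression table whose symbol begins with Timm, Tomm, Chchd, Mtfr or Mtfp, and 18 further genes named singly. This gave 54 genes of the 32662 rows in the table, on 57 rows, and the row with the highest mean was used for each of the 3 symbols that stood on more than 1 row. They were measured in primary cultures of oligodendrocyte precursors, the proliferating glia from which myelin-forming cells mature. Cortical mixed glia of Sprague Dawley pups (1 to 2 days old) were kept in DMEM with 20% FBS. The cells that did not adhere were then grown for 4 to 5 days, in both groups, in Neurobasal medium with 2 mM glutamine, 1% penicillin and streptomycin, 2% B27 and the growth factors PDGF and FGF at 10 ng/ml each. A control group (Control, n = 4) was set against a group deprived of oxygen and glucose for 6 h (oxygen glucose deprivation, OGD, n = 4), a culture model of ischaemia, and 6 h is the incubation time of the control group too. No genotype, transgene or further agent is recorded for either group. Whether replicates were separate cultures is not recorded, so p-values here speak of the spread among the 4 samples per group, and that spread may be technical.

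Nearly all mitochondrial proteins are encoded in the nucleus, made in the cytosol and imported. The TOM complex is the gate of the outer membrane, and the SAM complex inserts barrel-shaped proteins into it. The TIM23 complex passes proteins with a presequence through the inner membrane with the help of an ATP-driven motor, the TIM22 complex inserts carrier proteins, and small TIM chaperones ferry them across the space between the membranes. Mitochondria also fuse and divide: mitofusins join outer membranes, Opa1 joins inner membranes, and the dynamin relative Dnm1l constricts them. Oma1 is a protease that cuts Opa1 when mitochondria are under stress.

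Across the family, OGD moved few members far. Of the 54 members, 46 reached 1 FPKM (a level scaled for gene length and for library size) in at least 4 libraries and were tested, and all 17 called members were at or above 1 FPKM in all 8 libraries. With limma on log2(FPKM + 1) and a Benjamini-Hochberg threshold of 0.05 over all tested genes, 7 members rose, 10 fell and 29 did not pass. Over all 11149 tested genes, 22.7% rose and 26.8% fell, 49.5% together, so the 37.0% of tested members that were called lay below the table's own share. The median log2 change was -0.10 for tested members and -0.04 for all tested genes. A change of at least 1.5-fold between group means was seen in 4 members (8.70%: Mtfr1, Oma1 and Mtfp1 upward, Tomm40 downward) and in 24.3% of all tested genes. Every OGD library lay above every control library for 6 members and below for 8 (20.7% and 24.1% of all tested genes). The 7 rises were Mtfr1, Oma1, Mtfp1, Clpx, Lonp1, Pam16 and Opa1, and the 10 falls were Tomm40, Mfn1, Samm50, Timm8b, Tomm34, Chchd6, Tomm7, Tomm22, Timm22 and Immt.

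**Figure D1:**
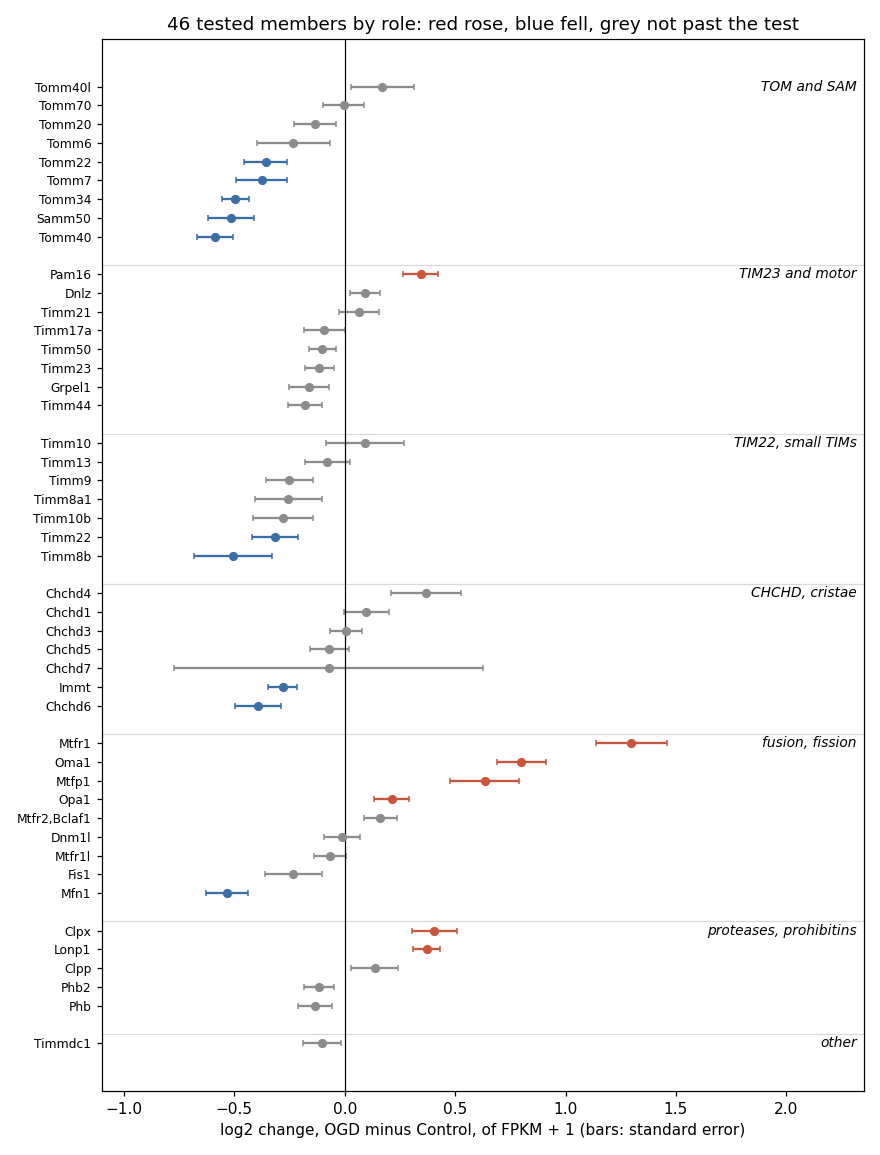
Log2 change of FPKM + 1, OGD minus Control, for the 46 tested members (x axis), grouped by role; dots are limma estimates and bars their standard errors (4 libraries per group). Of the 9 tested TOM and SAM genes 5 fell (blue) and none rose, and 4 of the 7 rises (red) stand among the 9 tested fusion and fission genes, 1 of them Opa1, whose call was lost in 13 of 18 alternatives; over all tested genes 26.8% fell and 22.7% rose.

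Libraries were close to one another but not equal. Low FPKM values stand mostly in steps of whole fragments (76.6% to 79.1% of 1200 to 1502 genes compared per library, within 0.01 on the log2 scale), which gave relative depths of 0.815 to 1.17 with control replicate 1 set to 1, and 14095 to 14444 genes had a value above 0 in a library; absolute fragment numbers are unknown. Control replicate 1 was the highest control library for 26 of the 46 tested members (56.5%), against 29.9% of all tested genes, and its values for members lay a median of 0.11 above the mean of the other controls on the log2 scale. The same median difference over all tested genes was -0.005. All 8 precursor markers were detected in every library, which is what the label calls for: control libraries summed to 2241 to 2365 FPKM and OGD libraries to 1474 to 1703 FPKM over them, where 5 of the 8 fell (Pdgfra, Cspg4, Olig1, Gpr17 and Ptprz1) and Olig2, Sox10 and Nkx2-2 did not pass. Markers of maturing oligodendrocytes were present too, with 4 of 6 falling and Mog rising (sums of 594 to 776 and 334 to 393 FPKM). All 9 matched microglial markers fell, their sum going from 195.8 to 322.1 FPKM in control to 63.3 to 117 FPKM in OGD. Of these, Cx3cr1 and Ptprc passed the filter only through the control libraries, so their lower OGD values follow from it. Astrocyte markers summed to 136 to 157 and 122 to 132 FPKM (S100b and Gfap of 6 tested fell, Gfap having passed the filter only through control, 0 rose, and Aqp4 and Aldh1l1 stayed under the filter), neuronal markers to 249 to 315 and 248 to 322 FPKM (2 of 8 rose and 2 fell). None of 7 vascular and stromal markers was tested, at summed levels of 0.199 to 0.418 and 0.0911 to 0.299 FPKM. Of these, Cldn5, Col1a2 and Dcn were listed at 0 throughout, which may be failed estimates. In bulk RNA, fewer cells of a type and less RNA per cell cannot be told apart. These marker shifts run beside every change given below, and their part in them was not tested.

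At the outer membrane gate, of 10 TOM and SAM members 9 were tested, 5 fell, 0 rose and 4 did not pass, with a median log2 change of -0.36. Those that fell make 55.6% of the 9, beside 26.8% of all tested genes. The summed FPKM of the group was 512 to 681 in control libraries and 427 to 510 in OGD libraries. These ranges almost touched, at control replicate 2 and OGD replicate 4. The upper control end was replicate 1, and the next control, replicate 3, was at 561 FPKM. Samm50 and 4 of the 8 tested Tomm genes fell. Tomm40 (ENSRNOG00000018556), the barrel that forms the import channel, was at 34.9, 33.0, 30.4 and 31.7 FPKM in control replicates 1 to 4, and OGD replicates 1 to 4 held 20.5, 20.9, 19.3 and 24.6 FPKM. All 4 OGD libraries were lower than all control libraries, and the mean fell from 32.5 ± 1.89 to 21.3 ± 2.31 FPKM (SD, n = 4 each), a log2 change of -0.59 (standard error 0.08, limma adjusted p = 0.000212). Samm50 (ENSRNOG00000011952), the channel of the SAM complex, was at 32.0, 27.9, 27.7 and 28.4 FPKM in control and 17.2, 20.0, 18.4 and 24.9 FPKM in OGD. Its groups did not overlap either, although OGD replicate 4 was nearer to the controls than the other 3, and the log2 change was -0.52 (standard error 0.11, limma adjusted p = 0.00216).

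Tomm34 (ENSRNOG00000029799), a cytosolic helper that binds chaperones during import, was at 24.4, 23.5, 23.7 and 23.01 FPKM in control and 15.9, 16.3, 17.2 and 16.6 FPKM in OGD. The groups were far apart relative to their spread, at 23.7 ± 0.581 and 16.5 ± 0.545 FPKM (SD, n = 4 each; log2 change -0.50, limma adjusted p = 9.26e-05). Tomm7 (ENSRNOG00000043114), a small subunit of the TOM complex, was at 201, 129, 148 and 154 FPKM in control and 120, 113, 119 and 129 FPKM in OGD. The lowest control and the highest OGD library almost touched. The log2 change was -0.38 (limma adjusted p = 0.0181), and -0.26 without control replicate 1 (limma adjusted p = 0.0218). Tomm22 (ENSRNOG00000014058), the receptor that organises the complex, was at 87.9, 69.8, 82.4 and 91.2 FPKM in control and 60.8, 65.7, 57.3 and 73.3 FPKM in OGD. Its groups overlapped through control replicate 2 and OGD replicate 4, and its log2 change was -0.36 (limma adjusted p = 0.0107).

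The other tested TOM genes did not pass. Tomm20 (ENSRNOG00000019980), the receptor for presequences, was at 119, 83.0, 97.5 and 88.8 FPKM in control and 86.0, 86.6, 86.3 and 90.8 FPKM in OGD. Control replicate 1 stood above all other libraries, and the remaining 3 controls spanned the OGD values (log2 change -0.14, limma adjusted p = 0.268). Tomm70, the receptor for carrier proteins, was at 20.7 ± 1.77 and 20.7 ± 2.30 FPKM, and the small subunit Tomm6 at 124.4 ± 26.96 and 105.5 ± 20.7 FPKM (SD, n = 4 each). Tomm40l, a paralogue of Tomm40, was at 4.59 ± 1.15 and 5.19 ± 0.301 FPKM. Within control cultures the order of mean levels was Tomm7, Tomm6, Tomm20, Tomm22, Tomm40, Tomm34, Tomm70 and Tomm40l, and neighbours among the first 4 differed by less than their summed SDs. Tomm20l was listed at 0 in all libraries, where an exact 0 may be a failed estimate.

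Promoter sequences show what lies in front of 3 TOM genes that fell together; they are RefSeq sequences of the GRCr8 build, each reaching from 250 bases before the annotated gene start to 50 after it. Capitals mark matches, on either strand, to 1 of 7 short motifs, the first being the CCAAT box. The letters searched for sites of ETS factors were CCGGAAG. For the nuclear respiratory factor NRF1 the core GCATGCGC was used. The core of the HIF site was read as ACGTG. The E-box was read as CACGTG, and each E-box therefore also holds a HIF core. The site of ERR receptors was read as AAGGTCA. The CARE element bound by ATF4 was read as TGATGNAA. Tomm40 lies at chr1:88498784-88499083 on the minus strand, Tomm22 at chr7:113107056-113107355 on the plus strand and Tomm7 at chr4:12197253-12197552 on the plus strand.
Tomm40: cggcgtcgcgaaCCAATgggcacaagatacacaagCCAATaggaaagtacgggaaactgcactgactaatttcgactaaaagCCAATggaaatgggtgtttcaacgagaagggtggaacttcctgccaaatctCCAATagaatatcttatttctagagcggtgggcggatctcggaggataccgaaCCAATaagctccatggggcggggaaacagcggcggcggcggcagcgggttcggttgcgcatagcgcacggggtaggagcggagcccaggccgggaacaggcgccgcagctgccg
Tomm22: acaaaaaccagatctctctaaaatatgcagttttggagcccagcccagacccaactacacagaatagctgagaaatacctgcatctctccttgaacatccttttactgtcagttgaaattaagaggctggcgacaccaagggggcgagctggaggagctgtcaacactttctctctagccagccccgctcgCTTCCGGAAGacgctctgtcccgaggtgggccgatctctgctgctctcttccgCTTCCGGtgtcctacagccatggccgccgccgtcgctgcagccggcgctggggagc
Tomm7: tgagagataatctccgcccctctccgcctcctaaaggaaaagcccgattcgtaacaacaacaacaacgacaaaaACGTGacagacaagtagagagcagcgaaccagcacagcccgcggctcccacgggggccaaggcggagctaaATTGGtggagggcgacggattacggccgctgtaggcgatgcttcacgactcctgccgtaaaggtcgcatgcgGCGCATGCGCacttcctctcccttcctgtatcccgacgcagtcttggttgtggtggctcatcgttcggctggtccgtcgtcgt
The Tomm40 window holds 5 CCAAT boxes, and 0.251% of 27457 RefSeq promoters (1 per gene) hold 5 or more, a count looked up after its sequence had been seen. Tomm22 holds ETS matches on both strands, 2 of them overlapping, and Tomm7 an NRF1 core beside a HIF core and a CCAAT box. The 3 windows thus share no single motif among the 7 searched. The window of Samm50, which fell too, is not printed here, and it holds a CCAAT box, as those of Tomm40 and Tomm7 do.

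Over the family, 45 of the 54 members had a promoter entry, Phb by its current symbol. ETS matches were found in 37.8% of these 45, in 9.22% of all promoters and in 18.7% of the 8206 promoters of tested genes. The HIF core was found in 40.0%, 19.7% and 26.2%, the CCAAT box in 44.4%, 37.7% and 38.2%, the E-box in 15.6%, 6.65% and 9.69%, and the NRF1 core in 6.67%, 2.66% and 5.75%. The CARE was found in 4.44%, 3.82% and 1.68%, and the ERR site in 6.67%, 4.37% and 2.40%. By call, the HIF core stood in 2 of 4 rising members with an entry (Oma1 and Opa1), in 2 of 8 falling members (Timm22 and Tomm7) and in 13 of 27 that did not pass. ETS matches stood in 0 of 4, 3 of 8 and 12 of 27. In the same order the CCAAT box stood in 2 of 4, 5 of 8 and 11 of 27, and the E-box in 0 of 4, 0 of 8 and 7 of 27. The NRF1 core and the ERR site each stood in 0 of 4, 1 of 8 and 2 of 27, and the CARE in 0 of 4, 1 of 8 and 1 of 27. These shares describe letters in a window, and no test was made on them.

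In the presequence route of the inner membrane, of 9 members of TIM23 and its motor 8 were tested, 1 rose (12.5%, beside 22.7% of all tested genes), 0 fell (beside 26.8%) and 7 did not pass. The riser was Pam16 (ENSRNOG00000004608), a regulator of the import motor, at 21.7, 21.3, 19.2 and 18.9 FPKM in control and 28.99, 24.7, 25.3 and 25.0 FPKM in OGD. All OGD libraries were above all controls, with a log2 change of 0.34 (standard error 0.08, limma adjusted p = 0.00387). Timm23 (ENSRNOG00000019811), the channel, was at 43.8, 42.4, 42.1 and 42.3 FPKM in control and 35.4, 40.0, 40.6 and 41.3 FPKM in OGD. Every OGD value was below every control value, but by a small distance, and the gene did not pass (log2 change -0.12, limma adjusted p = 0.160). The rest of this group lay between log2 changes of -0.18 and 0.09: Timm44, which anchors the motor (29.8 ± 2.64 and 26.1 ± 1.57 FPKM), Grpel1, its nucleotide exchange factor (23.5 ± 2.12 and 20.9 ± 2.24 FPKM), Timm50, a receptor (50.6 ± 2.28 and 47.1 ± 1.95 FPKM), Timm17a, Timm21 and Dnlz (SD, n = 4 each). Timm17b was listed at 0 throughout, which may be a failed estimate.

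In the carrier route 2 of 7 tested members fell and 0 rose; the 28.6% that fell is near the 26.8% of all tested genes, and both calls were lost in some alternatives. Timm22 (ENSRNOG00000007988), the carrier channel, was at 17.6, 14.1, 12.8 and 16.2 FPKM in control and 12.2, 10.51, 11.8 and 13.2 FPKM in OGD. The groups overlapped only between OGD replicate 4 and control replicate 3, and the log2 change was -0.32 (limma adjusted p = 0.0287). Timm8b (ENSRNOG00000009888), a small TIM chaperone, was at 63.5, 37.5, 50.3 and 55.5 FPKM in control and 41.4, 36.0, 25.3 and 41.9 FPKM in OGD, a log2 change of -0.51 (limma adjusted p = 0.0344). Its spread was wide in both groups, and control replicate 2 lay inside the OGD range. Without control replicate 1 both lost their calls (limma adjusted p = 0.0774 for Timm22 and 0.0950 for Timm8b). The adjusted p over 18 alternatives was 0.0139 to 0.0789 for Timm22, past the threshold in 13, and 0.00899 to 0.0950 for Timm8b, past it in 9. Timm9 (14.01 ± 1.95 and 11.6 ± 1.02 FPKM), Timm10 (7.56 ± 1.602 and 8.21 ± 2.38 FPKM), Timm10b, Timm13 and Timm8a1 did not pass, and Timm8a2 was under the filter.

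In the CHCHD and cristae group 2 of 7 tested members fell and 0 rose, again 28.6% beside 26.8% of all tested genes. Immt (ENSRNOG00000009097), the core protein of the MICOS complex that holds crista junctions, was at 41.2, 38.9, 39.3 and 37.5 FPKM in control and 31.3, 29.8, 32.7 and 34.7 FPKM in OGD. Chchd6 (ENSRNOG00000060248), a MICOS subunit, was at 20.2, 19.6, 20.3 and 22.4 FPKM in control and 15.8, 12.8, 14.9 and 18.7 FPKM in OGD. For both, all OGD libraries were lower than all controls, with log2 changes of -0.28 and -0.39 (limma adjusted p = 0.00479 and 0.00864). Chchd3, the other MICOS subunit of the CHCHD family, was at 87.3 ± 5.16 and 87.8 ± 7.40 FPKM (SD, n = 4 each), a log2 change of 0.01 with a standard error of 0.07.

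Chchd4 (ENSRNOG00000022466), the oxidoreductase that folds proteins of the space between the membranes, was at 5.34, 3.52, 4.27 and 6.38 FPKM in control and 6.02, 5.21, 7.23 and 7.64 FPKM in OGD. The groups overlapped and the gene did not pass (log2 change 0.37, limma adjusted p = 0.0776, 0.0258 to 0.204 over 18 alternatives). It passed without control replicate 4 (adjusted p = 0.0274), without OGD replicate 2 (0.0432), with the replicate number as a block (0.0258) and when libraries were rescaled outside mitochondrially encoded genes (0.0440). Chchd1, a protein of the mitochondrial ribosome, and Chchd5 did not pass. Chchd7 was listed at 0 in control replicate 3 and OGD replicate 4 and at 3.68 to 6.92 FPKM elsewhere, so its fit carried a standard error of 0.70. Chchd2 was listed at 0 in all libraries, which may be a failed estimate, and Chchd10 was under the filter at 0.131 to 0.731 FPKM.

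Of 12 members in fusion and fission 9 were tested, 4 rose (44.4%, beside 22.7% of all tested genes), 1 fell (11.1%, beside 26.8%) and 4 did not pass. The 3 largest rises among members were those of Mtfr1, Oma1 and Mtfp1. Mtfr1 (ENSRNOG00000021359), a fission regulator, was at 3.80, 2.30, 3.85 and 2.97 FPKM in control and 6.997, 8.93, 11.6 and 10.1 FPKM in OGD. Its lowest OGD value was far above its highest control value, and the mean rose 2.92-fold from 3.23 ± 0.741 to 9.42 ± 1.96 FPKM (SD, n = 4 each; log2 change 1.30, standard error 0.16, limma adjusted p = 9.91e-05). Oma1 (ENSRNOG00000007214) was at 1.71, 1.82, 2.00 and 2.41 FPKM in control and 4.05, 3.98, 4.72 and 3.99 FPKM in OGD. The groups were apart, the mean was 2.11-fold higher, and the log2 change was 0.80 (standard error 0.11, limma adjusted p = 0.000198). Mtfp1 (ENSRNOG00000004640), an inner membrane fission protein, was at 1.55, 2.66, 1.83 and 2.02 FPKM in control and 2.83, 4.83, 3.87 and 3.25 FPKM in OGD. Its OGD minimum stood just above its control maximum, with a mean 1.83-fold higher (log2 change 0.63, limma adjusted p = 0.00633). All 3 are low genes, so log2(FPKM + 1) understates their fold.

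The Oma1 promoter is printed because this gene is the riser with a HIF core, ACGTG in capitals, closest to its gene start; it is the RefSeq sequence at chr5:123312517-123312816 on the plus strand of GRCr8, and the match begins 6 bases before the start.
Oma1: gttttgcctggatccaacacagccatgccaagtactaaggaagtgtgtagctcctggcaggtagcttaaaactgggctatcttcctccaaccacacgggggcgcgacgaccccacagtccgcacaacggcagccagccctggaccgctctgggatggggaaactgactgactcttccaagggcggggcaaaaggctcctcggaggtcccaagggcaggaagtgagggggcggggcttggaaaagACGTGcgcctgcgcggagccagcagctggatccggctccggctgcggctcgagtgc
No other motif of the 7 was found in this window.

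The fusion genes went in both directions. Mfn1 (ENSRNOG00000011057), a mitofusin of the outer membrane, was at 18.6, 21.5, 19.7 and 20.6 FPKM in control and 16.1, 13.9, 12.8 and 11.8 FPKM in OGD. All OGD libraries were lower, and the mean fell from 20.1 ± 1.21 to 13.7 ± 1.87 FPKM (SD, n = 4 each; log2 change -0.53, limma adjusted p = 0.000952). Opa1 (ENSRNOG00000001717), the fusion GTPase of the inner membrane, was at 14.2, 17.9, 15.1 and 15.2 FPKM in control and 18.0, 17.5, 19.0 and 18.2 FPKM in OGD. Control replicate 2 lay inside the OGD range, and the log2 change of 0.21 was just past the threshold (limma adjusted p = 0.0446). That call was lost in 13 of 18 alternatives, among them each of 7 left-out libraries (all but control replicate 2), and the adjusted p ranged from 0.0121 to 0.131. Mfn2 was under the filter, at 0.775, 0.676, 0.454 and 0.728 FPKM in control and 0.250, 0.665, 0.475 and 0.329 FPKM in OGD. Its groups overlapped, and Yme1l1, a protease that also cuts Opa1, was listed at 0 in 6 libraries and at 0.0493 FPKM or less in the others, values that may also be failed estimates.

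Of the fission machinery itself, Dnm1l (ENSRNOG00000001813) was at 20.5, 24.4, 22.9 and 22.99 FPKM in control and 24.4, 23.4, 22.1 and 20.2 FPKM in OGD. Both groups covered the same range, with a log2 change of -0.01 (standard error 0.08, limma adjusted p = 0.908). Fis1, an outer membrane adaptor of fission, was at 76.8 ± 16.9 and 64.2 ± 4.92 FPKM (SD, n = 4 each; log2 change -0.23, limma adjusted p = 0.154), with control replicate 1 at 100.3 FPKM. Mtfr1l was at 37.7 ± 2.31 and 36.0 ± 2.72 FPKM. The row named Mtfr2 also carries the symbol Bclaf1, so its level (72.6 ± 6.22 and 81.2 ± 5.03 FPKM) cannot be given to either gene. Mff, a receptor for Dnm1l, was listed at 0 in all libraries, which may be a failed estimate and is not read as absence.

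Of the matrix proteases and prohibitins, Lonp1 and Clpx rose (2 of 5, or 40.0%, beside 22.7% of all tested genes) and the other 3 did not pass. Lonp1 (ENSRNOG00000046502), the ATP-dependent protease of the matrix, was at 35.3, 37.2, 39.2 and 36.5 FPKM in control and 47.5, 49.0, 50.8 and 45.6 FPKM in OGD. Clpx (ENSRNOG00000030225), the unfoldase that feeds the peptidase Clpp, was at 12.05, 13.4, 11.5 and 10.6 FPKM in control and 15.4, 13.6, 17.9 and 17.8 FPKM in OGD. In both genes every OGD library was above every control library, by a narrow distance for Clpx, and the log2 changes were 0.37 and 0.41 (limma adjusted p = 0.000612 and 0.00703). Clpp was at 29.1 ± 2.27 and 32.3 ± 5.21 FPKM (log2 change 0.14, limma adjusted p = 0.312). Phb (ENSRNOG00000046799), a ring-forming scaffold protein of the inner membrane, was at 43.4, 36.3, 35.0 and 39.5 FPKM in control and 33.5, 33.3, 35.5 and 37.5 FPKM in OGD. Its groups overlapped, and it and its partner Phb2 (121.8 ± 5.56 and 112.5 ± 8.11 FPKM) had log2 changes of -0.13 and -0.12 (limma adjusted p = 0.178 and 0.180). Timmdc1, which bears the Timm name but helps to assemble respiratory complex I, was at 22.5 ± 0.636 and 20.98 ± 2.53 FPKM (SD, n = 4 each).

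**Figure D2:**
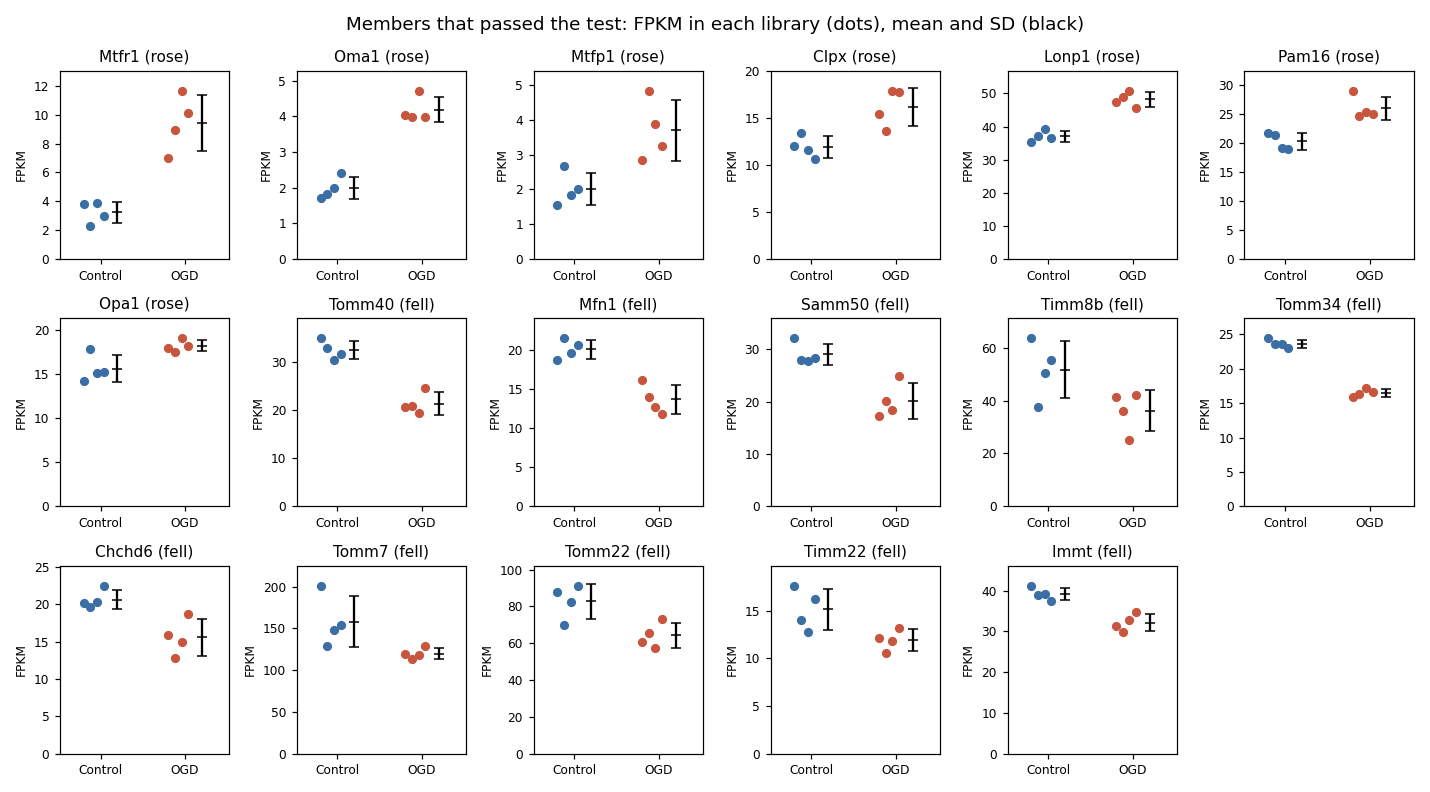
FPKM (y axis, from 0) of the 17 members that passed the test in the 4 Control (blue) and 4 OGD (red) libraries, with the mean and SD in black; rises come first, then falls. The groups overlap for Opa1, Timm8b, Tomm22 and Timm22 and are apart for the other 13.

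Levels and changes were set side by side. The 3 largest rises were those of Mtfr1, Mtfp1 and Oma1, with control means of 3.23, 2.01 and 1.99 FPKM. The other rises stood higher, at 11.9 (Clpx), 15.6 (Opa1), 20.3 (Pam16) and 37.1 FPKM (Lonp1). Falling members had control means from 15.2 FPKM (Timm22) to 158 FPKM (Tomm7), a range that holds Opa1, Pam16 and Lonp1 too. The median control level was 24.1 FPKM for tested members and 11.1 FPKM for all tested genes. The median size of the log2 change, without regard to sign, was 0.20 for members and 0.28 for all tested genes.

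**Figure D3:**
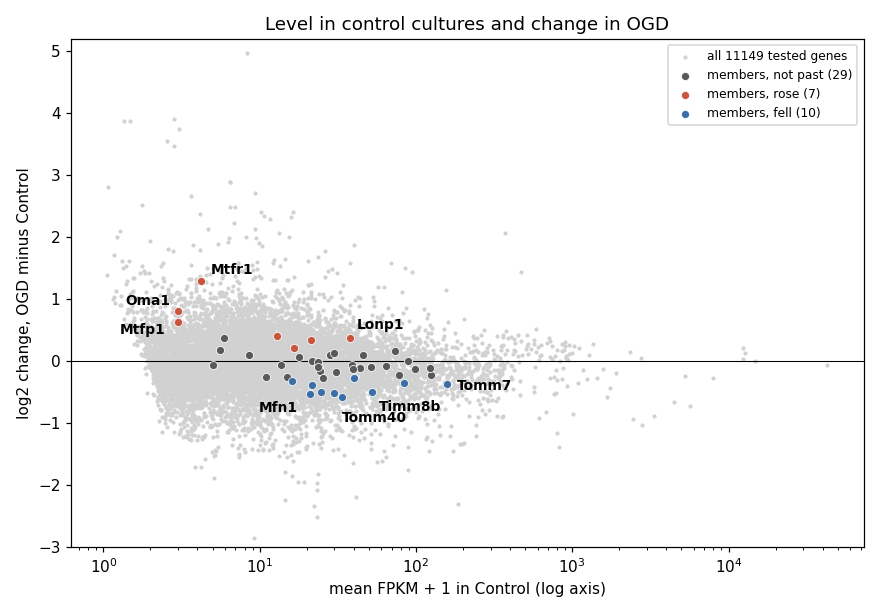
Mean FPKM + 1 in control (x axis, log scale) against the log2 change in OGD (y axis) for all 11149 tested genes (light grey) and the 46 tested members (dark grey, red and blue dots). The members lie within the cloud of all genes, with Mtfr1, Oma1 and Mtfp1 at the low end of expression and Tomm7 at the high end.

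Related members were also compared within each library, where a ratio does not depend on how the library was scaled. Of 9 listed pairs 6 had both genes above the filter. The FPKM ratio of Tomm40 to Tomm40l was 11.1, 6.68, 5.17 and 7.18 in control and 3.84, 4.35, 3.51 and 4.82 in OGD. That of Opa1 to Oma1, the fusion GTPase to the protease that cuts it, was 8.31, 9.80, 7.56 and 6.30 in control and 4.44, 4.39, 4.03 and 4.56 in OGD. That of Chchd3 to Chchd6 was 4.70, 4.28, 4.29 and 3.72 in control and 4.99, 6.75, 5.92 and 5.18 in OGD. In these 3 pairs the groups did not overlap, with log2 differences (OGD minus Control) of -0.82, -0.86 and 0.42 and an exact two-sided permutation p of 0.0286 each, the smallest that 4 against 4 allows. Adjusted over the 6 pairs the p was 0.0571, so none passed. With 3 pairs at the smallest p no lower adjusted value was possible, so this outcome says nothing of the size of the shifts. Clpp to Clpx (-0.30), Timm9 to Timm10 (-0.37) and Phb to Phb2 (-0.02) had exact permutation p of 0.114, 0.343 and 0.714, and their groups overlapped.

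**Figure D4:**
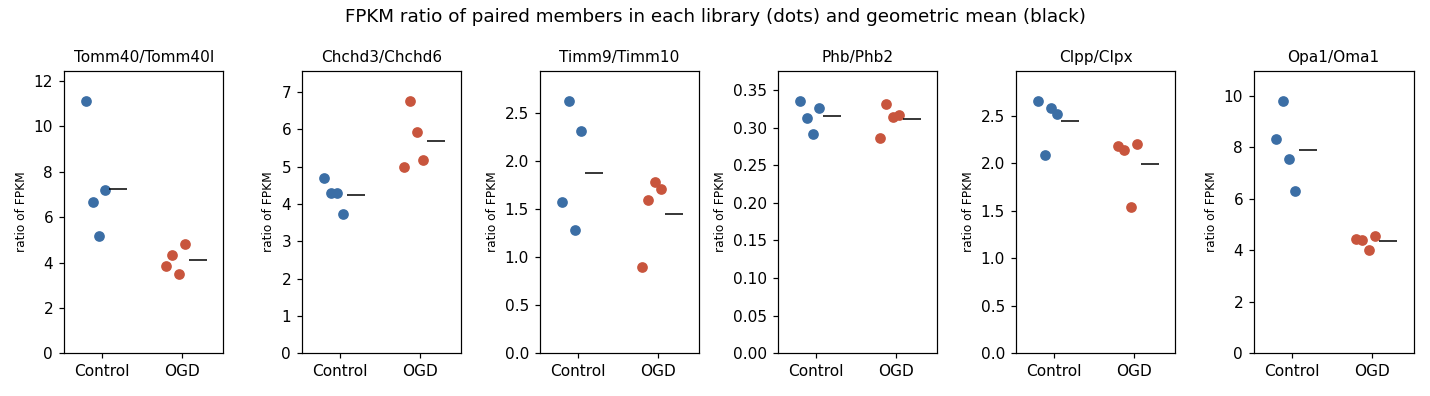
Ratio of FPKM between 2 members (y axis, from 0) in each Control (blue) and OGD (red) library for 6 pairs, with the geometric mean as a black line. Tomm40 to Tomm40l and Opa1 to Oma1 are lower in every OGD library than in every control library, and Chchd3 to Chchd6 is higher.

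Beyond the members, a list of 50 further genes of import, processing, cristae and dynamics was read in the same fit. Of these 46 matched a row and 43 were tested, of which 8 rose, 15 fell and 20 did not pass, with a median log2 change of -0.14 (22.7% of all tested genes rose and 26.8% fell). The number rising was 5 without control replicate 2 and 5 without OGD replicate 3. The largest falls were those of Immp1l, Mipep, Dnm2 and Minos1. Immp1l, an inner membrane peptidase, went from 10.3 ± 1.30 to 5.2 ± 0.537 FPKM and Mipep, a matrix peptidase, from 7.23 ± 0.529 to 4.10 ± 0.726 FPKM (SD, n = 4 each; log2 changes -0.87 and -0.70, limma adjusted p = 8.51e-05 and 0.000593). Dnm2, a dynamin, fell from 37.0 ± 0.684 to 23.3 ± 1.19 FPKM and Minos1, the small MICOS subunit that bends crista junctions, from 91.0 ± 18.3 to 59.5 ± 11.3 FPKM (log2 changes -0.65 and -0.60, limma adjusted p = 1.54e-05 and 0.00585). In Minos1 the groups overlapped, with control replicate 1 at 117 FPKM.

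The largest rises in that list were those of Cox18, Htra2, Mtx3 and Gfer. Cox18, which inserts a subunit of cytochrome oxidase, went from 3.68 ± 0.686 to 6.45 ± 0.623 FPKM and Htra2, a protease between the membranes, from 9.48 ± 1.35 to 15.3 ± 1.19 FPKM (SD, n = 4 each; log2 changes 0.68 and 0.64, limma adjusted p = 0.000990 and 0.000589). Gfer, the oxidase that recharges Chchd4, rose from 10.54 ± 2.31 to 15.4 ± 0.467 FPKM (log2 change 0.53, limma adjusted p = 0.00619). Aifm1, which holds Chchd4 in place, was at 8.82 ± 0.414 and 8.45 ± 1.29 FPKM and did not pass. Mtx3, a metaxin and a low gene, rose from 1.92 ± 0.390 to 3.39 ± 1.14 FPKM (log2 change 0.56, limma adjusted p = 0.0266). Its groups overlapped, with OGD replicate 4 at 2.09 FPKM and control replicate 4 at 2.45 FPKM. The call was lost in 5 of 17 alternatives, with an adjusted p of 0.00424 to 0.0699. These were no filtering and leaving out control replicate 1, control replicate 2, OGD replicate 2 or OGD replicate 3. The chaperones of the matrix differed in their calls. Hspa9, the ATPase of the import motor, was at 36.5 ± 1.51 and 37.7 ± 2.37 FPKM (limma adjusted p = 0.593). Hspd1, the main folding chaperone, fell from 94.3 ± 3.70 to 80.0 ± 7.35 FPKM (log2 change -0.24, limma adjusted p = 0.0192). That call was lost with quantile normalization (log2 change -0.12, adjusted p = 0.142) and narrowly without control replicate 2 or 3 or OGD replicate 1 or 2 (adjusted p = 0.0501 to 0.0524; 0.0102 to 0.142 over 18 alternatives).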

How the data were processed

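RNA of 4 control and 4 OGD samples was purified with RNeasy columns and made into strand-specific Agilent SureSelect libraries, per the labels' protocols. The authors deposited 1 table of FPKM per gene and library, per the file headers. Per the submitters' processing notes, Trimmomatic and FastQC were used and the build was rn6 (Rnor_6.0); the sources used here do not name an aligner, an annotation, the program behind the FPKM, or whether strand was used. FPKM holds no counts, so no interval from counts could be made, and values of overlapping genes and close copies are uncertain. Gene positions are not in the table.

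Samples were grouped by their titles. A gene was tested where 4 or more libraries reached 1 FPKM. In R 4.3.3, limma 3.58.1 fitted log2(FPKM + 1) on group alone with a trended empirical Bayes step, with Benjamini-Hochberg adjustment over all 11149 tested genes. Ratios of pairs were tested by exact two-sided permutation of the 8 libraries. The members, lists, pairs and tests were chosen with earlier results of these data known. Values in every library were given for the 8 largest rises and 8 largest falls past the threshold (only 7 members rose) and for Tomm20, Tomm40, Samm50, Timm23, Timm22, Chchd4, Immt, Opa1, Mfn1, Mfn2, Dnm1l, Lonp1 and Phb; of the 50 further genes, the 4 largest rises, the 4 largest falls and 4 reference genes were named. Other members are given by mean or range. Of 98 list and marker entries 2 matched by an older symbol and 6 did not match (Hspe1, Immp2l, Micos13, Miga1, Itgam and Pecam1). RefSeq tables (GRCr8) served for current and older symbols and promoters only. In a simulation of the OGD comparison with 11149 genes, the fit called 32%, 72%, 98% and 100% of 50 genes each changed 1.25, 1.5, 2 and 4-fold, with 9 false calls, and 0 calls with no change. The 200 changed genes were drawn from genes with control levels above those of Mtfr1, Oma1 and Mtfp1. In the data 5519 genes were called, so these rates need not hold there or for low genes. The ETS motif was added to 6 others after the data had been seen. Tables came from pandas 2.3.3 under Python 3.11.15, and figures from matplotlib 3.10.9.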

Additional observations from a re-analysis of the deposited data

Results flagged for a closer look

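Over tested members, 92 sets of 4 replicate values were checked for a single distant value; 7 held one, where chance gives about 4.6. In OGD, Oma1 was at 4.72 FPKM in replicate 3 against 3.98 to 4.05 FPKM in the others, so the lowest OGD values still lay above the controls. Pam16 was at 28.99 FPKM in OGD replicate 1 against 24.7 to 25.3 FPKM, and Timm10, a small TIM chaperone, at 11.7 FPKM in the same library against 6.73 to 7.49 FPKM. Timm8a1 was at 5.62 FPKM in OGD replicate 3 against 8.90 to 9.54 FPKM, and Tomm20 at 90.8 FPKM in OGD replicate 4 against 86.0 to 86.6 FPKM. In control, replicate 1 held the high value of Samm50 (32.0 FPKM against 27.7 to 28.4 FPKM) and of Timm23 (43.8 FPKM against 42.1 to 42.4 FPKM).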

How the results depend on the processing

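Of the 17 called members, 14 kept direction and call under every alternative in which they were tested and 3 lost the call in at least 1 (Opa1, Timm8b and Timm22); none changed sign. The alternatives were quantile normalization, median centring, rescaling outside mitochondrially encoded genes, a filter of 5 FPKM or none, a smaller pseudocount (0.1), the replicate block, no trend in limma, rows summed per symbol, each library left out, and control replicate 1 with OGD replicate 4 left out. Leaving out single libraries gave 6 to 8 rising and 8 to 12 falling members, a median of -0.12 to -0.06, 5 to 8 rising and 12 to 16 falling genes of the further list, and 2197 to 2484 rising and 2608 to 3010 falling genes in all. Median centring gave 6 rising and 12 falling members, and 2243 rising and 3245 falling genes in all. Same-numbered samples did not deviate together (correlations of -0.22, 0.16, 0.01 and 0.09), so the numbers were not taken to pair them; with the replicate block 7 members rose and 11 fell, Opa1 lost its call (adjusted p = 0.0687) and Chchd4 gained one (0.0258). The sign of Dnm1l, never past the threshold, turned with rescaling (0.0232), without control replicate 2 (0.0217) and without OGD replicate 4 (0.0367; range -0.0583 to 0.0367 over left-out libraries). The ratio of Phb to Phb2 turned from -0.02 to 0.0083 without control replicate 1 and 0.0202 without OGD replicate 1 (range -0.0599 to 0.0202); the causes were not tested. Without 1 library the other ratios kept their sign. Timm9 to Timm10 moved from -0.37 to -0.14 without OGD replicate 1 and to -0.21 without control replicate 2. Clpp to Clpx moved from -0.30 to -0.17 without OGD replicate 3. None of the ratios passed without 1 library. The adjusted exact permutation p was 0.0571 to 0.114 for Tomm40 to Tomm40l, Opa1 to Oma1 and Chchd3 to Chchd6. For Clpp to Clpx it was 0.0571 to 0.386. With 3 against 4 libraries an exact p can take few values, so these say little of stability. Fragment numbers are unknown, which limits low genes such as Oma1 and Mtfp1 most.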
